A study of Mus musculus with 12 samples.

Results

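The 10 genes of heme breakdown and iron handling examined here, which act from the opening of heme to the storage and export of its iron, were followed through single-colour expression arrays of mouse microglia. They were 10 of the 23579 genes that could be named on either array design. They were taken by name, and every probe whose accession mapped to one of them was used. That gave 15 of 55681 probes on one array design and 18 of 56605 on the other, of which 12 were among the 30629 probes shared by both. For 1 of these, a Cp probe, the accession on the slide of 4 had no name in the RefSeq table, so 11 were followed on both. Hmox1 alone had no shared probe.

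The cells came from male mice 8 weeks old and were enriched by magnetic sorting for CX3CR1, the fractalkine receptor of microglia. Mice were wild type (WT), labelled ZEB1-overexpression (ZEB1-OE) or labelled ZEB1-knock down (ZEB1-KD). Cells were taken before or after tMCAO, the transient blockage of the middle cerebral artery used as a stroke model, with 2 arrays for each of the 6 groups. ZEB1 is a zinc-finger transcription factor best known as a repressor that binds E-box sequences. The sources used here do not give the promoter or targeted cell type behind the overexpression, the means of the knock-down, the time after tMCAO, or whether the 2 samples of a group came from separate animals. The p-values therefore cover only how far such samples differ, which could be a technical spread. WT and ZEB1-OE after tMCAO were on a slide of 4 arrays, and the other 4 groups on a slide of 8 arrays of another design. Tests were made only within a slide.

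Levels are log2 intensities minus the 75th percentile of the same array. In intensity units that percentile was at 1078 to 1515 on the slide of 4 and at 2566 to 3702 on the slide of 8. The scanner software had marked spots as uneven or outlying, between 1.03% and 3.28% of them for WT and ZEB1-KD before tMCAO and between 7.49% and 23.7% for the remaining 8 arrays. Marked spots were left out of the tests unless stated, so that several bright members rested on 1 array of a group. All 14 microglia markers were well above background on at least 1 array of every group. So were all 8 neuron, 8 astrocyte and 9 oligodendrocyte markers. In WT before tMCAO the log2 of the summed signal was 5.62 to 5.66 for microglia and 5.93 to 6.01 for neuron markers. It was 5.72 to 5.87 for oligodendrocyte and 5.53 to 5.62 for astrocyte markers. In WT after tMCAO it was 7.49 to 7.64 for microglia and 5.68 to 5.73 for neuron markers. Other cells were therefore present beside microglia. Zeb1 itself did not follow the labels. With all spots kept its log2 difference from WT was 0.26 ± 0.23 (SE) in ZEB1-OE before tMCAO, 0.13 ± 0.23 in ZEB1-KD before tMCAO and -0.02 ± 0.29 in ZEB1-OE after tMCAO, with limma adjusted p = 0.771, 0.984 and 0.974. The sources used here do not say whether its probes match the introduced or the targeted part of the gene. The names ZEB1-OE and ZEB1-KD below stand for the arrays labelled so.

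Heme from red cells and dying tissue is opened by heme oxygenase, which releases iron, carbon monoxide and biliverdin. Biliverdin reductases turn biliverdin into bilirubin, and the freed iron is stored in ferritin or leaves the cell through ferroportin with the help of a ferroxidase. Macrophages and microglia take iron up through the transferrin receptor and move it out of endosomes and phagosomes with NRAMP transporters. Several of these genes are driven by NRF2 through antioxidant response elements, and ferritin and the transferrin receptor are also controlled through their mRNAs by iron itself.

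Promoter sequences are shown for Blvrb and Slc11a1, which hold TGANNNNGC and rose in the comparison described next. They are also shown for the members with an E-box of the kind ZEB1 binds, Tfrc and Fth1. Cp rose in the same comparison, and its windows held no match of TGANNNNGC. RefSeq (GRCm38.p6) held an entry for 7 of the 10 members, with 11 windows of 250 bases before a start site; Hmox1, Slc40a1 and Slc11a2 had none. All sequences are on the plus strand, 5′ to 3′. In the Blvrb window (chr7:27447728-27447977) and in the stretch of the Slc11a1 window (chr1:74375141-74375169), the capitals mark TGANNNNGC, the core of the antioxidant response element, on either strand. In the stretches of the Tfrc window (chr16:32608764-32608823) and of the upstream Fth1 window (chr19:9980350-9980409), the capitals mark CACCTG.
Blvrb: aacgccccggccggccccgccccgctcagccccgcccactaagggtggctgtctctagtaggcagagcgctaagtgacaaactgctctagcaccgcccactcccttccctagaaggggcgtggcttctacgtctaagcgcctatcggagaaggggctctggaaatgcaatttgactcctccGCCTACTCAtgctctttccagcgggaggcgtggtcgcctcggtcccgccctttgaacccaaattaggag
Slc11a1: tgtgaaattgTGAGCATGCcctcagtgat
Tfrc: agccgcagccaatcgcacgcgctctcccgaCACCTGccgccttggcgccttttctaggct
Fth1: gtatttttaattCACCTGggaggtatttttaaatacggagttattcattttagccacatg
The match of TGANNNNGC began 69 bases before the start site in Blvrb, on the minus strand, and 52 bases before it in Slc11a1. The second Blvrb window held 2 matches, and the windows of Cp, Ftl1, Fth1, Nqo1 and Tfrc held none. Over all 32851 promoter windows, both strands searched, 35.2% held TGANNNNGC and 17.2% held CACCTG, and no window of a member held both. CACCTG began 102 bases before one of the start sites of Tfrc and 238 bases before one of those of Fth1. A match describes these letters only.

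In ZEB1-KD microglia, levels of several members were higher after tMCAO than before it. Of the 9 members tested 5 rose and 0 fell, against 16% of all genes called (10.1% higher, 5.9% lower of 24646). Hmox1 rose 7.35-fold, Slc11a1 3.45-fold, Cp 2.48-fold, Slc11a2 1.99-fold by its brightest probe and Blvrb 1.72-fold. Fth1, Tfrc, Slc40a1 and Nqo1 did not pass the test, and Ftl1 could be tested only with all spots kept. The median log2 difference was 0.78 over the 9 members and 0.04 over all genes.

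**Figure D1:**
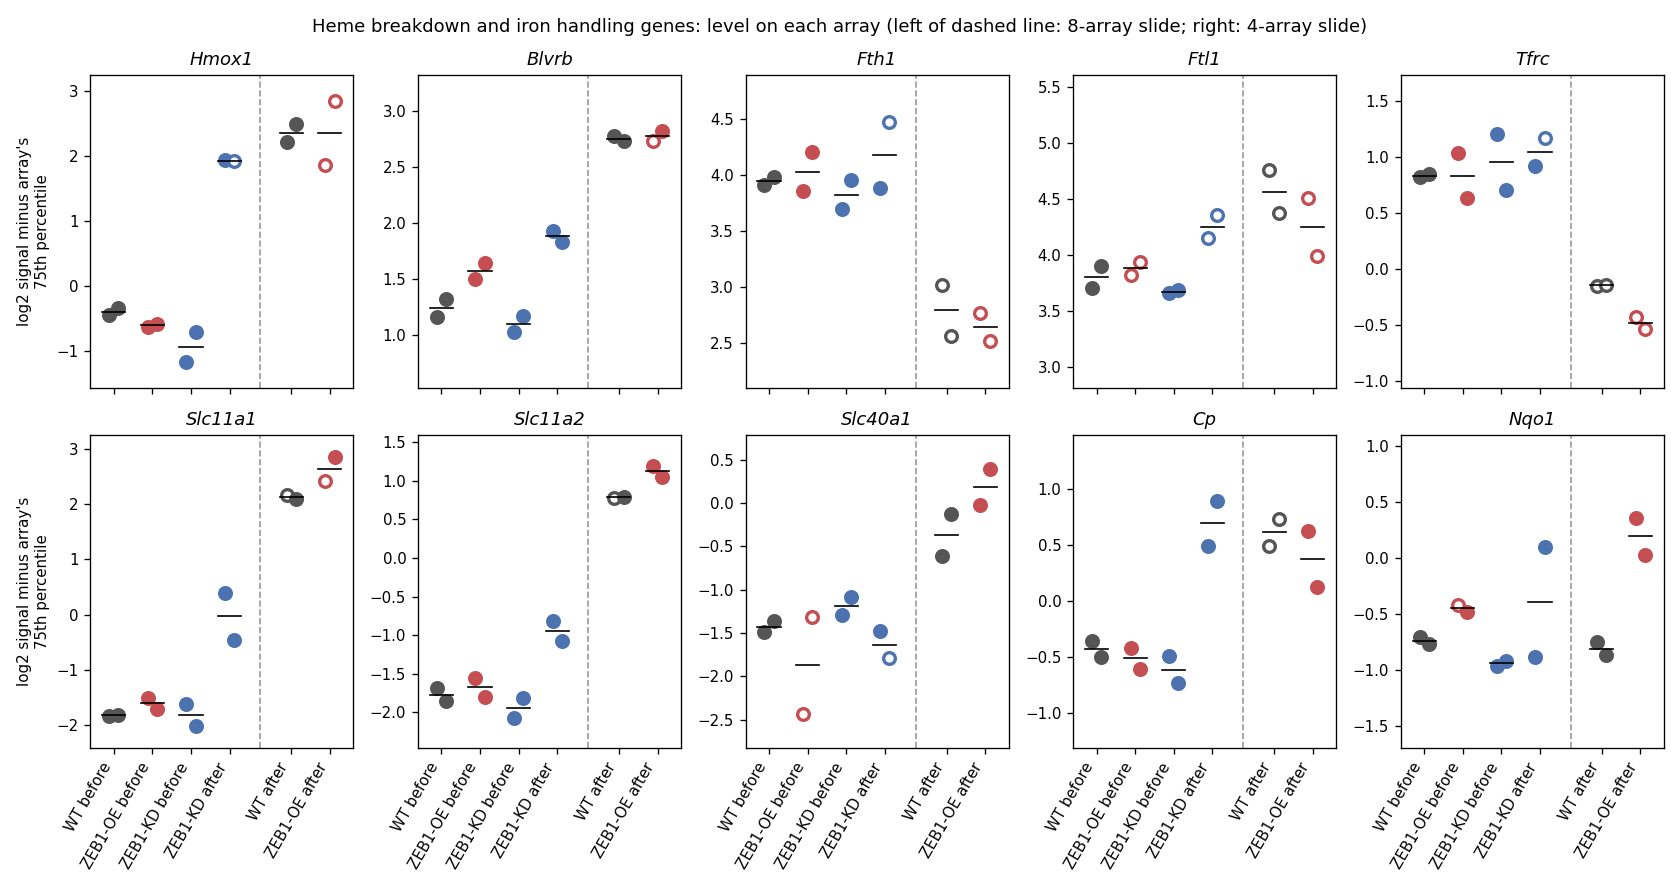
Level of each gene on each of the 12 arrays (log2 signal minus the array's 75th percentile; brightest probe of the gene, all spots), with a bar at the group mean and an open symbol where at least 1 spot was marked. The dashed line divides the array designs, between which no test was made, and the Hmox1 probes differ between them. Hmox1 stood at 1.94 and 1.92 on the ZEB1-KD arrays after tMCAO and between -1.17 and -0.34 on the 6 arrays before it.

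Hmox1, the inducible heme oxygenase, stood at 1.94 and 1.92 on the ZEB1-KD arrays after tMCAO and at -1.17 and -0.70 on those before it. Both arrays after tMCAO were far above both before it, and also above WT before (-0.44 and -0.34) and ZEB1-OE before (-0.62 and -0.58). The log2 difference was 2.88 ± 0.25 (limma adjusted p = 0.00598) with 1 array after tMCAO, since the other spot was marked, and 2.86 ± 0.19 (adjusted p = 0.00206) with both. It was called under all 19 settings in which it could be tested, with a log2 difference between 2.49 and 3.11, though most of these also rested on the 1 unmarked array after tMCAO. Blvrb, which encodes the flavin reductase named biliverdin reductase B, lay at 1.93 and 1.83 after tMCAO and at 1.03 and 1.17 before it. Its groups did not overlap, and the difference was 0.78 ± 0.15 (n = 2 arrays per group, adjusted p = 0.0244).

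The NRAMP transporters rose as well. Slc11a1 (NRAMP1), which pumps iron out of the phagosomes of macrophages, was at 0.40 and -0.46 after tMCAO and at -1.61 and -2.03 before it. The log2 difference was 1.79 ± 0.30 (n = 2 per group, adjusted p = 0.0173). The arrays after tMCAO differed by more than those before, yet both were above every array taken before tMCAO in any genotype, the highest of which was -1.51. Slc11a2 (DMT1), which carries iron out of endosomes, was at -0.82 and -1.08 after tMCAO and at -2.07 and -1.81 before it with its brightest probe, a difference of 0.99 ± 0.19 (adjusted p = 0.0225).

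The probes of Slc11a2 did not move alike. With all spots kept, 2 further probes of the same transcript (NM_008732) gave 0.38 ± 0.26 (adjusted p over all probes 0.331) and 0.20 ± 0.47 (0.790). The probe of NM_001146161 gave -0.55 ± 0.27 (0.203), from -1.70 and -2.49 after tMCAO and -1.54 on both arrays before it, with both spots after tMCAO marked. The probes of Cp differed as well. Cp encodes ceruloplasmin, the copper ferroxidase that helps iron leave cells. Its brightest probe (NM_007752) was at 0.49 and 0.90 after tMCAO and at -0.50 and -0.73 before it, a difference of 1.31 ± 0.20 (adjusted p = 0.0125). A second NM_007752 probe gave 1.15 ± 0.19 (adjusted p over all probes 0.0139). The probes of NM_001276250 and NM_001276248 gave -0.14 ± 0.18 (0.600) and -0.04 ± 0.28 (0.934). The second NM_007752 probe and that of NM_001276248 were dim, with means of -3.81 and -4.70 after tMCAO. The second Tfrc probe gave -0.31 ± 0.24 (0.402).

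**Figure D2:**
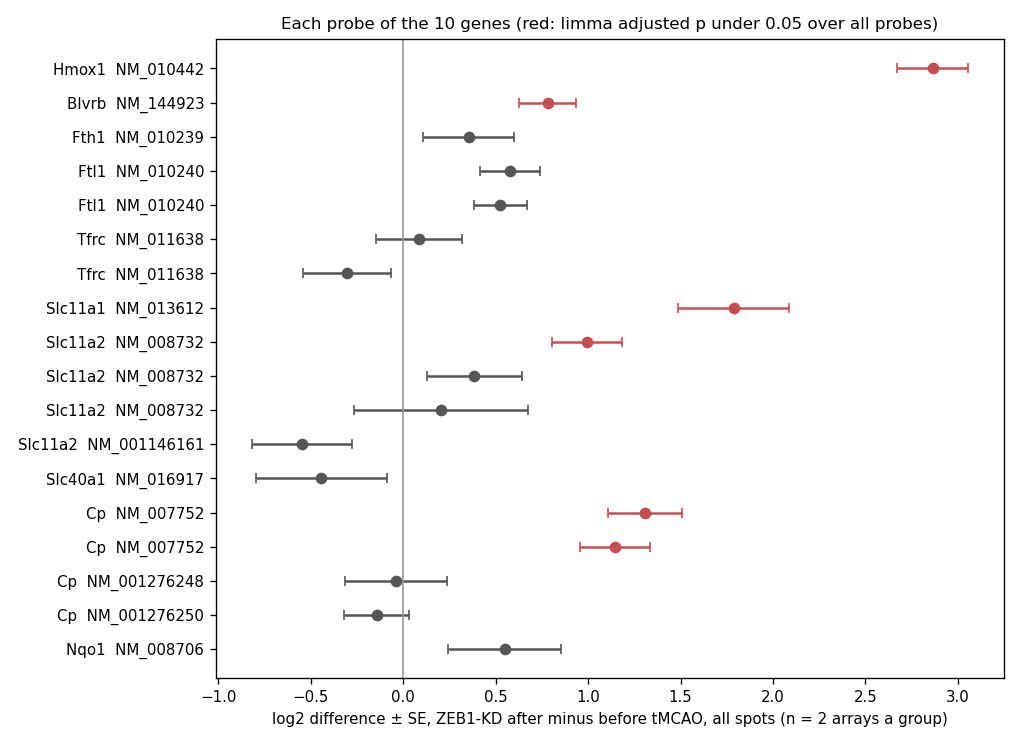
Log2 difference with its SE for each of the 18 probes of the 10 genes, ZEB1-KD after minus before tMCAO, with all spots kept (n = 2 arrays per group); red marks an adjusted p under 0.05 over all probes. For Cp both NM_007752 probes are red, at 1.31 and 1.15, and the probes of other accessions lie at -0.04 and -0.14; of 4 Slc11a2 probes 1 is red.

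The storage genes were bright, and neither passed the test. On ZEB1-KD replicate 1 after tMCAO the brightest Ftl1 probe had an intensity of 65434. The scanner software marked 3 spots of that array as saturated. Whether so bright a signal limited the measured rise was not tested. Fth1, the ferritin heavy chain, was at 3.88 and 4.47 after tMCAO and at 3.69 and 3.95 before it. Its groups overlapped, and the difference was 0.06 ± 0.24 on the 1 unmarked array after tMCAO (adjusted p = 0.884) and 0.35 ± 0.24 with all spots (0.342). Ftl1, the light chain, had both spots after tMCAO marked. It stood at 4.15 and 4.35 after tMCAO and at 3.66 and 3.68 before it. The groups did not overlap, and the difference of 0.58 ± 0.16 missed the threshold (adjusted p = 0.0531). The second Ftl1 probe gave 0.53 ± 0.14 (adjusted p over all probes 0.0544).

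Uptake through transferrin and export through ferroportin gave no call. Tfrc, the transferrin receptor, was at 0.92 and 1.17 after tMCAO and at 1.20 and 0.71 before it, so the groups overlapped; the difference was 0.09 ± 0.23 with all spots (95% interval -0.48 to 0.65). Slc40a1, ferroportin, was at -1.48 and -1.79 after tMCAO and at -1.30 and -1.09 before it. These groups did not overlap, and the difference was -0.44 ± 0.36 with all spots (95% interval -1.30 to 0.42) and -0.29 ± 0.22 on the unmarked array (adjusted p = 0.406). Nqo1, a quinone reductase that serves as a standard NRF2 target, was at -0.88 and 0.10 after tMCAO and at -0.96 and -0.92 before it. One array after tMCAO was level with the group before it and the other was not. The difference was 0.55 ± 0.33 (adjusted p = 0.297), and it passed the test, at 1.04, only with all spots kept and without replicate 1 after tMCAO (0.0265); without replicate 2 it was 0.06.

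By the plain order of the arrays with all spots, 7 of the 10 members were higher on both ZEB1-KD arrays after tMCAO than on both before it and 1 was lower, where 33.6% and 28.4% of all genes were. Leaving out either ZEB1-KD array before tMCAO left Hmox1 as the 1 member called, with 580 and 475 of all genes called in place of 3940. For Hmox1 that set 1 unmarked array against 1, with the spread taken from the other groups. With both arrays after tMCAO kept, its difference was 2.63 without replicate 1 before tMCAO (adjusted p = 0.0249) and 3.10 without replicate 2 (0.0233). Without replicate 1 after tMCAO, Slc11a1 and Cp were called of 5 members that could be tested.

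**Figure D3:**
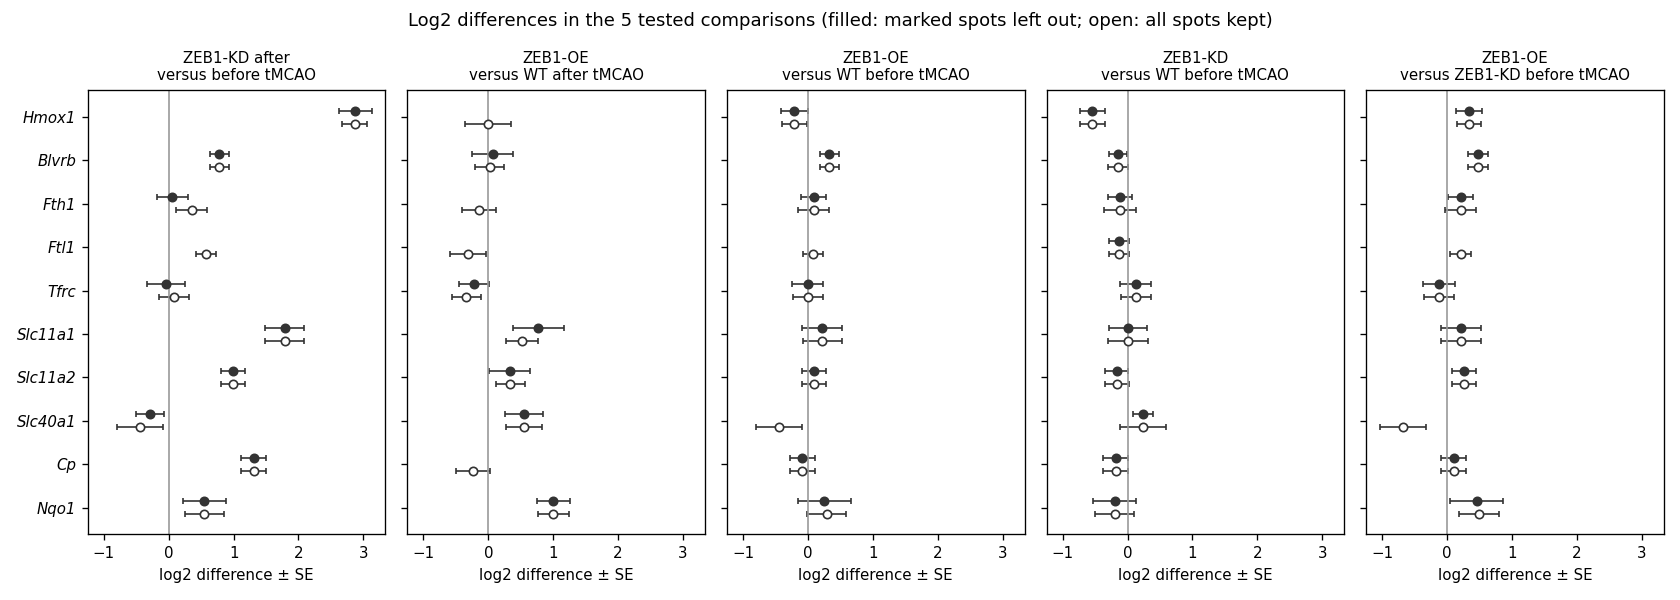
Log2 difference with its SE for the 10 genes in the 5 comparisons, filled with marked spots left out and open with all spots kept; a missing filled symbol means too few unmarked arrays. The ZEB1-KD difference after against before tMCAO runs from -0.29 to 2.88 (filled), and no gene passed the test in the other 4 panels.

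Other properties of the arrays moved with this comparison. The ZEB1-KD arrays after tMCAO lay in row 1 and columns 1 and 2 of the slide and those before it in row 2 and columns 3 and 4, so position and time cannot be told apart. The ZEB1-OE arrays before tMCAO shared columns 1 and 2, with 18.2% to 23.7% of spots marked, and WT before shared row 1. No array of another group shared both the row and the columns. The part of position in the rise was not tested. Markers of monocytes and border macrophages rose in 5 of 8 tested (Chil3, Cd163, Lyve1, Pf4 and Ms4a7). Their summed level was 3.19 to 3.24 before tMCAO and 4.75 to 4.82 after it. All 10 were above background on at least 1 array of both groups. Microglia markers rose in 5 of 10 tested, with summed levels of 5.51 to 5.55 before and 6.05 to 6.19 after. Their part in the rise of Hmox1, Slc11a1, Cp, Slc11a2 and Blvrb was not tested. In these bulk samples more cells of a type and more RNA per cell cannot be told apart. Erythroid markers, whose cells are a source of heme, fell in 2 of 4 tested (Slc4a1 and Alas2), and in 1 of 5 with all spots kept. Their summed levels were 2.65 to 3.41 before and 1.45 to 2.26 after. Slc4a1, Epb42 and Rhag were not well above background after tMCAO. Slc4a1 entered the test only through groups before tMCAO, so its call is no independent support. Among neutrophil markers 1 of 5 rose (Cxcr2), and 2 of the 5 had a positive difference, with a median of -0.25. With all spots kept 6 of 8 were positive, with a median of 0.36. Their summed levels, set mostly by the brightest genes, were 2.60 to 2.78 before and 3.20 to 3.48 after. Of the remaining marker lists, 1 of 7 astrocyte, 2 of 6 endothelial and 1 of 2 oligodendrocyte markers rose, and 1 of 5 choroid plexus, 1 of 2 neuron and 1 of 3 lymphocyte markers fell.

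Around the 10 members, a list of 50 further genes of the same pathways was examined in the ZEB1-KD comparison. Of the 27 tested 5 rose and 0 fell, with a median log2 difference of 0.35. By sublist, 1 of 8 genes of heme uptake and export, 4 of 14 of iron uptake, storage and export, 0 of 1 of iron sensing and 0 of 4 of NRF2 and its targets rose. With all spots kept 9 of 46 rose, where 10.1% of all genes did, and without either ZEB1-KD array before tMCAO 0 of 27 did. Lcn2, the siderophore-binding lipocalin that withholds iron from bacteria, was at 2.83 and 3.34 after tMCAO and at -0.03 and 0.22 before it (2.99 ± 0.45, adjusted p = 0.0129). Steap3, an endosomal ferrireductase, was at -2.16 and -2.70 after and -4.68 and -4.48 before (2.15 ± 0.25, adjusted p = 0.00735). For both genes the groups lay far apart.

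Slc39a8, a zinc transporter that also carries manganese and iron, was at -0.38 and -0.51 after tMCAO and at -1.39 and -1.58 before it (1.04 ± 0.17, adjusted p = 0.0154). Cd163, the scavenger receptor for haemoglobin bound to haptoglobin, was at -0.97 and -0.44 after and -1.76 and -1.70 before (1.03 ± 0.23, adjusted p = 0.0428). It is also one of the border macrophage markers above. Hfe, which binds the transferrin receptor and takes part in iron sensing, was at 0.53 and 0.35 after and -0.87 and -0.91 before (1.42 ± 0.24 on the 1 unmarked array after tMCAO, adjusted p = 0.0225; 1.33 ± 0.18 with both, adjusted p = 0.00903).

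Once tMCAO had occurred, ZEB1-OE and WT microglia did not differ in any member beyond the threshold. Genotype went with slide row here, with both WT samples in row 1 and both ZEB1-OE samples in row 2. The part of row in the differences below was not tested. On the 4-array slide 0 of 6 members tested were called, and 0 of 10 with all spots kept, against 2.31% and 3.2% of all genes. At an unadjusted p under 0.05 by limma there was 1 of the 6 members, Nqo1, where 20.8% of all genes passed. It was at 0.36 and 0.02 in ZEB1-OE and at -0.75 and -0.87 in WT. These groups did not overlap, and the log2 difference was 1.003 ± 0.254 (n = 2 per group, adjusted p = 0.0958); across settings the adjusted p ran from 0.0501 to 0.365 and the difference from 0.84 to 1.17. The Hmox1 probe of this slide with the higher signal was at 1.86 and 2.85 in ZEB1-OE and at 2.22 and 2.50 in WT. The WT arrays lay inside the ZEB1-OE range, and the difference was -0.00 ± 0.35 with all spots (95% interval -0.84 to 0.83, adjusted p = 0.995). A second Hmox1 probe gave 0.47 ± 0.53 (adjusted p over all probes 0.628).

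The other members did not pass the test between ZEB1-OE and WT after tMCAO either. Slc40a1 was at -0.02 and 0.39 in ZEB1-OE and at -0.61 and -0.12 in WT, a difference of 0.55 ± 0.29 (adjusted p = 0.331). Slc11a1 was at 2.42 and 2.86 against 2.16 and 2.09, a difference of 0.52 ± 0.25 with all spots (adjusted p = 0.276). For both the groups did not overlap, as for Slc11a2, which was at 1.20 and 1.05 against 0.78 and 0.80 (0.34 ± 0.22 with all spots, adjusted p = 0.413). Tfrc was the member lower on both ZEB1-OE arrays, at -0.43 and -0.54 against -0.15 and -0.14 as a mean of 10 spots (-0.34 ± 0.22, adjusted p = 0.406). Counted so, 4 members were higher and 1 lower on both ZEB1-OE arrays, where 21.6% and 33.8% of all genes were. By their brightest probes Blvrb, Fth1, Ftl1 and Cp overlapped between the groups, with differences of 0.02, -0.15, -0.32 and -0.24 with all spots and adjusted p from 0.537 to 0.967. The second Ftl1 probe did not overlap, at 3.77 on both ZEB1-OE arrays against 4.04 and 4.13 in WT (-0.31 ± 0.23, adjusted p over all probes 0.450). A second, dim Slc11a2 probe was higher on both ZEB1-OE arrays (1.02 ± 0.41, 0.198), and the second Tfrc probe overlapped (-0.30 ± 0.33, 0.626).

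Of the 29 tested genes of the wider list 2 rose in ZEB1-OE against WT after tMCAO and 0 fell, against 1.58% and 0.734% of all genes tested, with a list median of 0.15 and -0.11 over all genes. Among them was Steap4, a metalloreductase of the plasma membrane, at -3.44 and -4.24 in ZEB1-OE and not well above background in WT. It was at least 4.80-fold higher (adjusted p = 0.0215), counted against the lowest signal well above background on the WT arrays. It entered the test only through ZEB1-OE, so the call is no independent support, and among probes above background on every array 1 of 26 genes of the list rose. After normexp 0 of 29 were called. Without either WT array 0 genes of the list were called. Markers of other cells moved beside this comparison. Elane, of 4 neutrophil markers tested, rose (2.01 ± 0.37, adjusted p = 0.0463), and no gene of the other marker lists was called. With marked spots left out, the median difference was 0.80 over the 4 neutrophil markers, 0.64 over 7 monocyte and border macrophage markers and 0.95 over 5 lymphocyte markers, all of them positive. It was -0.70 over 5 endothelial and -0.42 over 4 neuron markers, all negative, and -0.58 over 4 oligodendrocyte markers. All spots gave positive differences for 5 of 8 neutrophil, 8 of 9 monocyte and border macrophage and 5 of 5 lymphocyte markers. Their medians were then 0.22, 0.35 and 0.95. So counted, 1 of 8 endothelial, 0 of 8 neuron and 1 of 9 oligodendrocyte markers were positive. With all spots kept the endothelial Cldn5 and Tie1 fell (-1.52 ± 0.26 and -2.11 ± 0.26, adjusted p = 0.0332 and 0.0136). Summed levels in ZEB1-OE and WT were 5.46 to 5.48 and 4.98 to 5.12 for monocytes and border macrophages. For neutrophils they overlapped, at 6.197 to 6.207 and 5.970 to 6.201. They were 3.11 to 3.96 and 2.71 to 2.91 for lymphocytes, and 3.29 to 3.31 and 4.06 to 4.21 for endothelium. The part of these cells, and of slide row, in the differences above was not tested.

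Before tMCAO no member was called between genotypes. With limma 0 of 8 members were called in ZEB1-OE against WT, 0 of 10 in ZEB1-KD against WT and 0 of 8 in ZEB1-OE against ZEB1-KD, and 0% of all genes were called in each. At an unadjusted p under 0.05 the counts over all genes were 2712, 2651 and 3343 (10.8%, 8.75% and 13.3%), and among members 0, 1 (Hmox1) and 1 (Blvrb). By the plain order of the arrays with all spots, 3 members were higher and 1 lower in ZEB1-OE against WT, where 22.8% and 24.5% of all genes were. In ZEB1-KD against WT 1 was higher and 3 lower (13.9% and 30% of all genes), and in ZEB1-OE against ZEB1-KD 5 were higher and 1 lower (31.8% and 19.4%). Hmox1 was lowest in ZEB1-KD, and its groups did not overlap: -0.44 and -0.34 in WT, -0.62 and -0.58 in ZEB1-OE, -1.17 and -0.70 in ZEB1-KD. ZEB1-KD against WT gave -0.54 ± 0.19 (n = 2 per group, adjusted p = 0.524), and it moved to -0.31 without ZEB1-KD replicate 1 and to -0.78 without replicate 2. ZEB1-OE against WT gave -0.21 ± 0.21 (adjusted p = 0.761).

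Blvrb was at 1.50 and 1.65 in ZEB1-OE, 1.16 and 1.32 in WT and 1.03 and 1.17 in ZEB1-KD. ZEB1-OE lay above both other groups, by 0.33 ± 0.15 over WT (adjusted p = 0.501) and 0.47 ± 0.15 over ZEB1-KD (adjusted p = 0.310). Nqo1 had the same order, with -0.42 and -0.49 in ZEB1-OE, -0.71 and -0.77 in WT and -0.96 and -0.92 in ZEB1-KD. Its difference between ZEB1-OE and ZEB1-KD was 0.49 ± 0.31 with all spots (adjusted p = 0.503). Slc40a1 was uneven within ZEB1-OE, at -2.43 and -1.32 with both spots marked, against -1.49 and -1.37 in WT and -1.30 and -1.09 in ZEB1-KD. ZEB1-OE lay in other columns of the slide than WT and ZEB1-KD before tMCAO, so its position and its genotype cannot be told apart.

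By their brightest probes Fth1, Ftl1, Tfrc, Slc11a1, Slc11a2 and Cp differed by at most 0.26 log2 units between any pair of genotypes before tMCAO. Among them the 95% intervals, with all spots, were widest for Slc11a1 (-0.72 to 0.73 in ZEB1-KD against WT). Further probes of these genes differed more. The other 3 Cp probes were lower on both ZEB1-OE arrays than in WT or ZEB1-KD, with differences of -0.33, -0.45 and -0.48 against WT and -0.25, -0.45 and -0.58 against ZEB1-KD (adjusted p over all probes from 0.315 to 0.673). The second Ftl1 probe was higher on both ZEB1-OE arrays, by 0.29 ± 0.14 over WT (0.603) and 0.44 ± 0.14 over ZEB1-KD (0.315). The other Slc11a2 probes ran from -0.48 to 0.44 and the second Tfrc probe from -0.36 to 0.22 over the 3 comparisons, and none passed the test.

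None of the 33, 46 and 33 genes of the wider list tested in the same comparisons was called. The largest differences on 2 arrays per group were in Hpx, the heme-binding hemopexin, at -2.64 and -3.82 in WT, -3.36 and -3.03 in ZEB1-OE and -4.50 and -4.65 in ZEB1-KD. ZEB1-KD against WT gave -1.34 ± 0.38 (adjusted p = 0.414) and ZEB1-OE against ZEB1-KD gave 1.38 ± 0.38 (adjusted p = 0.282). Lcn2 in ZEB1-OE against WT, at 0.45 ± 0.45, was the largest of the third comparison (adjusted p = 0.765).

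For WT and ZEB1-OE, before and after tMCAO lay on different designs, so slide and time cannot be told apart and no test was made. With the 20753 shared probes above background as a yardstick, the median shift from before to after was 0.49 in WT and 0.38 in ZEB1-OE. The 10th and 90th percentiles were -1.39 and 2.97 in WT and -1.38 and 3.12 in ZEB1-OE. For ZEB1-KD, on a single slide, the median was 0.03 and these percentiles were -0.71 and 1.08. Shifts across designs thus spread more widely, so their sizes cannot be set directly against those of ZEB1-KD. Slc11a1 shifted by 3.95 in WT and 4.25 in ZEB1-OE beside 1.79 in ZEB1-KD, each beyond its own 90th percentile. Slc11a2 shifted by 2.56 and 2.80 beside 0.99, and Blvrb by 1.51 and 1.20 beside 0.78. Fth1 shifted by -1.15 and -1.39 beside 0.35, with the ZEB1-OE value just below the 10th percentile, and Tfrc by -0.98 and -1.31 beside 0.09. In WT and ZEB1-OE, 87.0% and 90.1% of shared probes had a higher shift than Fth1, and 84.2% and 89.1% a higher one than Tfrc. Slc40a1 shifted by 1.06 and 2.06 beside -0.44, Cp by 1.04 and 0.89 beside 1.31, Ftl1 by 0.76 and 0.37 beside 0.58, and Nqo1 by -0.07 and 0.64 beside 0.55. These are the brightest probes. A second Slc11a2 probe shifted by -0.07 and 0.50 beside 0.20, and a second Tfrc probe by 0.41 and 0.25 beside -0.31, each unlike the first. In WT and ZEB1-OE, 5.17% and 5.25% of shared probes shifted up by more than Slc11a1 did, 26.8% and 30.9% by more than Blvrb, 36.3% and 37.4% by more than Cp and 42.8% and 50.2% by more than Ftl1, so the last of these lay near the middle of all probes. In ZEB1-KD the same shares were 4.23% for Slc11a1, 14.8% for Blvrb, 7.65% for Cp and 19.8% for Ftl1. Hmox1 could not be set across designs. Summed marker levels differed between the slides too. For microglia they were 5.62 to 5.66 before and 7.49 to 7.64 after tMCAO in WT. In ZEB1-OE they were 5.46 to 5.49 and 7.33 to 7.46. For monocytes and border macrophages they were 3.42 to 3.46 and 4.98 to 5.12 in WT. In ZEB1-OE these were 3.24 to 3.37 and 5.46 to 5.48. Neutrophil markers were also higher after tMCAO, and neuron and oligodendrocyte markers lower. The part of these cells in the shifts was not tested.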

How the data were processed

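Expression was measured on 12 Agilent arrays, 2 for each of 6 groups taken from the labels. The scanner files that the authors deposited hold linear fluorescence intensity after background subtraction and spatial detrending, per the file headers (Feature Extraction 11.5.1.1, against version 9.1 of Agilent Feature Extraction in the submitters' processing notes). Marks of a kind called "other" state per the file headers whether a spot was uneven, outlying, saturated or well above background. The log2 values of the deposited value tables are centred on each array's 75th percentile, and in them the 2 columns of ZEB1-KD after tMCAO match each other's scanner files. They served as an alternative.

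From the scanner intensity, log2 was taken, each array's 75th percentile was subtracted, marked spots were left out and spots of a probe averaged. Accessions were named through the RefSeq table (GRCm38.p6). A probe was kept where all arrays of 1 or more groups of its slide had it well above background, and the brightest stood for its gene. Tests were two-sided, by lmFit and eBayes of limma 3.58.1 under R 4.3.3, all groups of a slide in a fit, with Benjamini-Hochberg adjustment over all genes and a threshold of 0.05. Errors are SE. The method was tested on simulated data. Named were all 10 members with every kept probe and, from 50 further pathway genes, those past the threshold in a comparison, or else at most the 3 with the largest difference measured on every array. Marker lists were those of microglia, monocytes and border macrophages, erythroid cells, neutrophils, astrocytes, oligodendrocytes, endothelium, choroid plexus, neurons and lymphocytes; a summed level is the log2 of the summed signal over the array's 75th percentile. Some list genes are not reported here by name. The members, lists and tests were chosen with earlier results of these data known. Alternatives were other scalings, filters, probe rules, the value tables, the replicate number as a block, only the 2 groups compared, and each array left out. The background alternative used the median spot signal in place of the mean spot signal, which was not among the columns at hand. The number of arrays limits the precision.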

Additional observations from a re-analysis of the deposited data

How the results depend on the processing

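No member changed direction and passed the test under any alternative, and 0 members were called in the other 4 comparisons under each alternative chosen at the start. In ZEB1-KD after against before tMCAO the count of 5 members called fell to 3 with median scaling, with no filter on dim probes or with the mean of a gene's probes, and to 2 with only the 2 groups compared; without 1 array each it ran from 1 to 5. The cause was not tested, except that leaving out an array or 2 groups leaves fewer arrays. Hmox1 was called in 19 of 19 settings, Slc11a1 and Cp in 15 of 20, Blvrb in 11 and Slc11a2 in 10. The mean of the kept probes gave 0.01 for Slc11a2 and 0.57 for Cp. Median scaling moved the median of all genes in this comparison from 0.04 to -0.23, and Fth1 and Tfrc to -0.33 and -0.43. The replicate block, for numbers that nothing shows to pair the samples (correlations of 0.0204 to 0.145), left 5 members called and gave 4138 genes in place of 3940, and 444 in place of 510 in ZEB1-OE against WT after tMCAO. Keeping all spots, without 1 array each, was added after the data were seen.

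In that comparison the wider list went from 5 of 27 called to 12 after normexp, 8 of 25 among probes above background on every array and 3 with median scaling. Counts over all genes moved more. ZEB1-KD after against before tMCAO had 3940 calls (2487 higher, 1453 lower), 5584 after normexp, 5062 with marked spots kept, 1715 with no filter, 2013 with only the 2 groups, and 475 to 3308 without 1 array; the split was 1866 and 2219 with quantile normalization, 1904 and 2734 with median scaling. ZEB1-OE against WT after tMCAO had 510 calls, 208 after normexp, 318 after quantile normalization, 297 with median scaling, 895 with marked spots kept, 929 over every probe, 0 with no filter (4123 at an unadjusted limma p under 0.05) or with the mean of a gene's probes (4184), and 54 to 1079 without 1 array. With the mean of probes 463 genes were called in ZEB1-OE against WT before tMCAO and 512 in ZEB1-OE against ZEB1-KD.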
